A study of Sus scrofa with 20 samples.

Results

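Interferon-stimulated genes are the transcripts that cells switch on after an interferon binds its receptor. Here 36 of them were followed in the pig uterus, chosen by gene symbol from a list (the row with the highest mean where a symbol was repeated). The count table held 35 of the 36 among 30345 gene rows, and all 35 passed the filter on low counts; IFIT5 was not analysed here. All 35 also carried the same gene identifier and symbol in the RefSeq gene table of pig assembly Sscrofa11.1, which served for names and gene order only.

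The uteri came from 20 crossbred sows (Large White by Landrace, wild type, parity 3.53 ± 1.12) killed 6 days after estrus began, with 5 sows and 5 libraries in each of 4 groups. FR1 sows received the rich fraction of the boar ejaculate, FR2 sows the rich and intermediate fractions, and FR3 sows the rich, intermediate and poor fractions. Semen was deposited beyond the cervix, on average 2.53 ± 0.74 times per sow, and came from 9 ejaculates of 3 Pietrain boars about 32 months old. Control sows were not inseminated. Although the horns were checked for embryos, no label records which animals had them, so semen and early pregnancy cannot be told apart in any comparison with control. Libraries are named below by group and column number, since the columns give the group and not the sow. Nothing in the labels puts the groups in different batches.

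Interferons act through separate receptors that share part of their signalling. Type I and type III interferons (alpha, beta, delta, omega, epsilon, lambda) signal through a complex that holds STAT2 and IRF9 and turns on antiviral genes such as MX1, ISG15, the OAS enzymes and the IFIT proteins. Type II interferon (gamma) acts through a receptor of its own, and IRF1 and the guanylate-binding proteins GBP1 and GBP2 are among its strongest targets. In the female reproductive tract, interferon epsilon is known from mouse and human studies as an interferon that epithelium makes without infection. The elongating pig conceptus secretes interferon delta and gamma, at a later stage than the one sampled here.

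Library totals ran from 33 to 62.9 M estimated counts, and levels are given as CPM, the counts scaled to library size, after TMM scaling. Because gene lengths were not given, levels are compared between libraries and not between genes. Epithelial, stromal and smooth muscle markers, of cell types that the whole uterine wall holds, were detected in every library. The libraries differed in make-up. The summed level of 15 epithelial markers was 1740 to 6900 CPM in inseminated libraries and 5030 to 8330 CPM in control libraries, and that of 7 smooth muscle markers was 3360 to 25800 CPM in inseminated and 1010 to 29800 CPM in control libraries. In such bulk tissue, fewer cells of a type and less RNA per cell cannot be told apart.

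Interferon-stimulated genes were expressed in every group, and they went up and down together from library to library more than from group to group. The mean of the 35 genes' standardised log2 levels was lowest in FR1_4 and FR1_1, at -1.63 and -1.41 SD units, and highest in FR3_1 and FR3_5, at 1.18 and 1.08. FR2_3 at -1.03 and FR3_4 at -0.94 were the next lowest. Control libraries lay at 0.76, -0.39, 0.62, 0.79 and 0.32. FR1_4 alone held the lowest value of 19 genes and FR1_1 that of 6, while FR3_1 held the highest value of 13. All 4 of the lowest libraries were inseminated, and no 2 groups were separated by this mean.

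**Figure D1:**
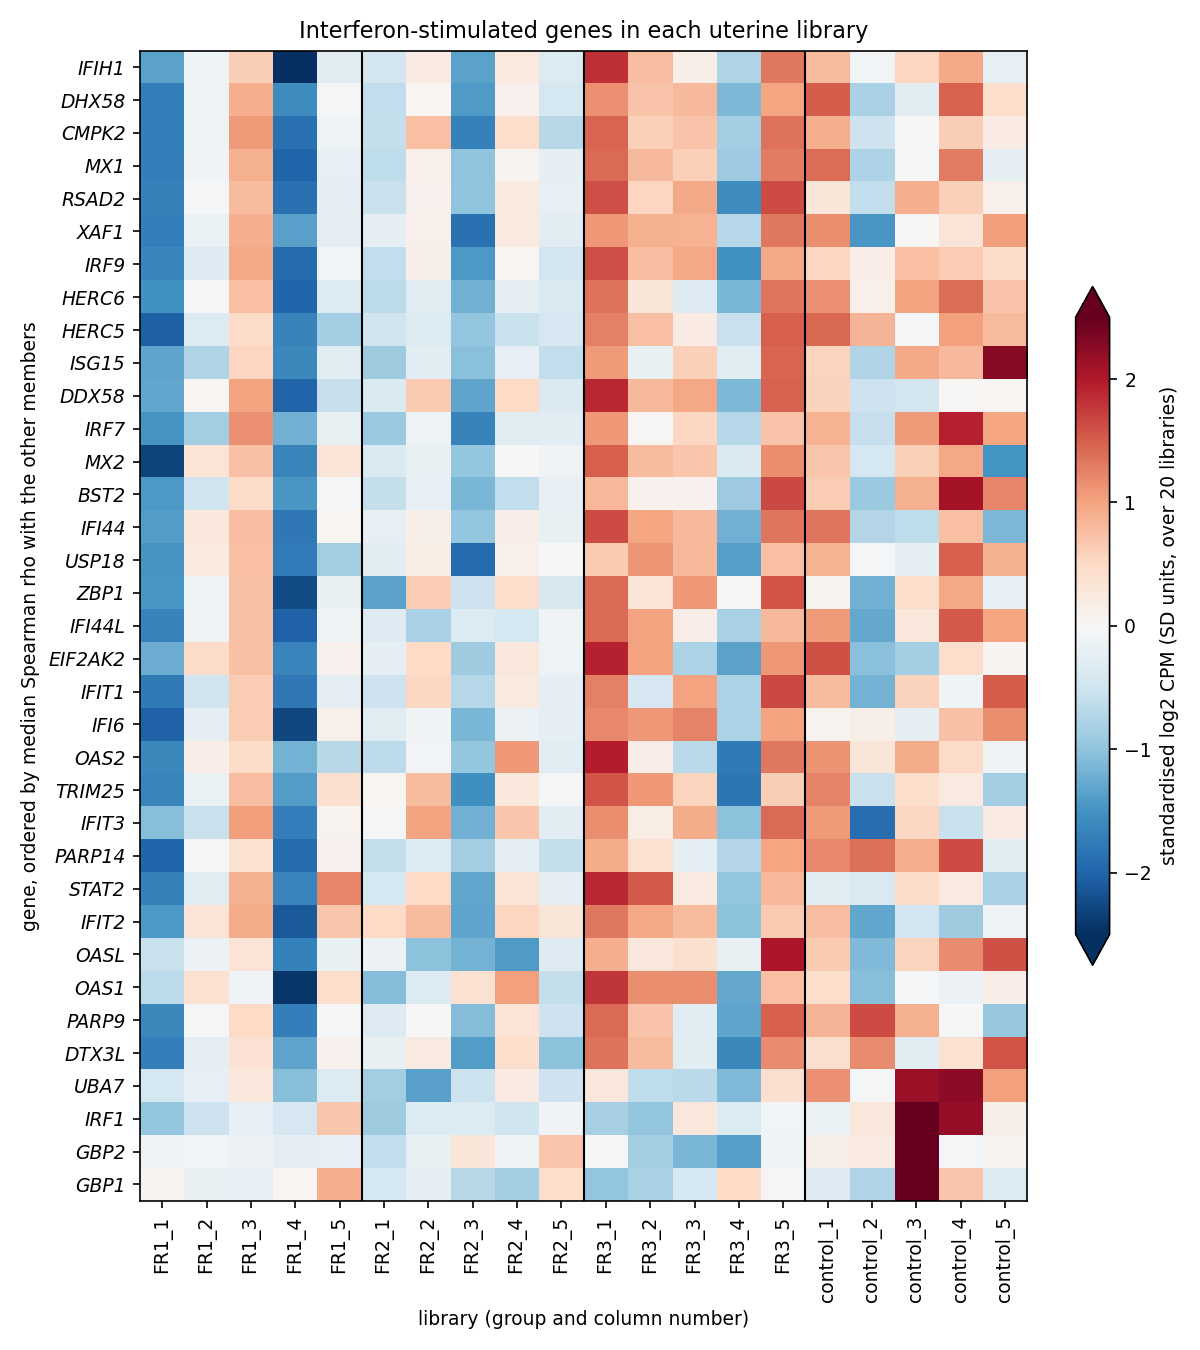
Standardised log2 CPM of the 35 interferon-stimulated genes (rows) in the 20 libraries (columns, FR1, FR2, FR3 and control from left to right), with genes ordered by their median Spearman correlation with the other genes. FR1_1, FR1_4, FR2_3 and FR3_4 are blue over most rows and FR3_1 and FR3_5 red, while the lowest 3 rows (IRF1, GBP2, GBP1) are reddest in CONTROL_3; the colour scale ends at the marked limits and CONTROL_3 exceeds it for these 3 genes.

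MX1, a GTPase that blocks virus replication, shows the shape most genes shared. Its level was 17.7, 66.3, 145, 14 and 60 CPM in FR1_1 to FR1_5, and 42.6, 78, 31.2, 74.2 and 58.3 CPM in FR2_1 to FR2_5. In FR3_1 to FR3_5 it was 221, 137, 115, 33.9 and 200 CPM, and in control 218, 38.1, 68.7, 201 and 58.5 CPM. Every group overlapped every other, and MX1 differed 10.4-fold within FR1 alone. The fitted log2 fold change of inseminated against control was -0.57 ± 0.47 (edgeR, SE; adjusted p = 0.484).

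The shared movement can be put as a number. Over the 595 pairs of genes, the median Spearman correlation across the 20 libraries was 0.69, and it was 0.64 after each group's mean was taken out, so most of it lay within groups. The points share library and depth, and the value is a description. The RNA sensors IFIH1 (MDA5) and DHX58 (LGP2), the nucleotide kinase CMPK2 and MX1 had the highest medians with the other genes, from 0.81 to 0.82. The closest pair was DHX58 and MX1 at 0.96. UBA7 was looser at 0.53, and IRF1, GBP2 and GBP1 stood outside the pattern at 0.22, 0.06 and -0.20. These last 3 are the genes of the list best known as interferon gamma targets.

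Several members lie side by side in RefSeq gene order, or with at most 2 genes between them. The correlations of these 10 pairs ran from 0.03 to 0.92, where the median of all pairs without IRF1, GBP1 and GBP2 was 0.74. The highest were MX2 and MX1, with 1 gene between them, at 0.92, HERC5 and HERC6 at 0.91, and RSAD2 (viperin, which makes a chain-terminating nucleotide) and CMPK2 and also IFIT3 and IFIT1 at 0.90. IFIT2 and IFIT3 were at 0.83, IFI44 and IFI44L at 0.74, and PARP14 and DTX3L, with 2 genes between them, at 0.71. DTX3L and PARP9 were at 0.70, OAS2 and OAS1 at 0.51, and GBP2 and GBP1 at 0.03. Reads shared between related genes (the IFIT, OAS, MX and GBP genes) may be split unevenly by the counting, which could affect these pairs.

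Genes outside the list with the same profile were ranked over 17710 tested genes by their Spearman correlation with the mean of the list. The 10 highest included SHISA5 (0.97), LGALS3BP (0.95), GRN and LGALS9 (0.94 each), ETV7 (0.91), CDH1, UBE2L6 and LOC110260088 (0.90 each) and DDX60 (0.89). UBE2L6 is the conjugating enzyme that hands on ISG15. CDH1 is E-cadherin, the adhesion protein of epithelium. EPCAM and KRT18 followed less closely, at 0.63 and 0.70, and the values of the other epithelial markers are not given here.

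Epithelial content differed between libraries along with the list. The 4 inseminated libraries with the lowest epithelial sums were FR3_4 (1740 CPM), FR1_1 (1890), FR1_4 (1980) and FR2_3 (2260), against 3060 to 6900 CPM in the other 11 inseminated libraries. This order held for the sum and not for every marker. EPCAM was at 128 to 172 CPM in these 4 libraries and at 146 to 244 CPM in the 11. KRT18 was at 110 to 122 CPM and at 99.1 to 236 CPM, so both overlapped. None of the 15 markers was at 0 in any library. The summed smooth muscle markers were at 23200, 25800, 22900 and 12900 CPM in FR3_4, FR1_1, FR1_4 and FR2_3. For 23 of the 35 genes, all 4 of these libraries lay below all 11 others, against a background of 7.48% of all genes tested. IFIT2, which binds viral RNA, was at 4.46 to 16.1 CPM in the 4 libraries and at 78.6 to 263 CPM in the 11. TRIM25, a ubiquitin ligase that acts on the sensor RIG-I, was at 26.7 to 34.7 CPM and at 78 to 240 CPM. UBA7, IRF1, GBP1 and GBP2 were among the 12 genes with overlap.

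**Figure D2:**
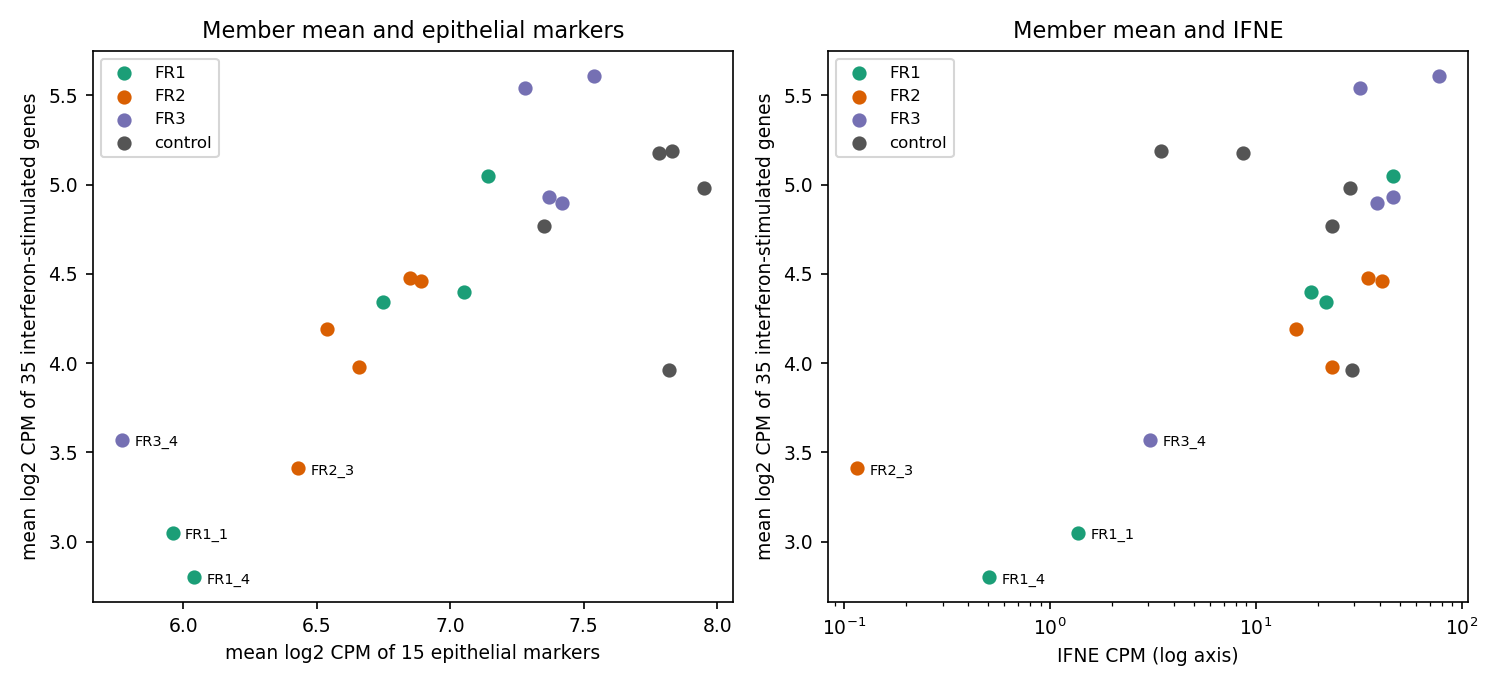
Mean log2 CPM of the 35 interferon-stimulated genes in each library against the mean log2 CPM of 15 epithelial markers (left) and against the CPM of interferon epsilon (IFNE) on a log axis (right), coloured by group. The 4 named libraries are the lowest of the 15 inseminated ones on all 3 measures, and the 5 control libraries, at 7.35 to 7.95 on the left axis, lie to the right in the left panel.

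The first comparison asked whether inseminated uteri, taken as the mean of FR1, FR2 and FR3, differed from control uteri. By edgeR's quasi-likelihood test, 7 of the 35 genes fell and 0 rose in inseminated uteri, which is 20.0% of the list, against 11.1% of all genes tested (8.2% lower, 2.87% higher). ISG15, UBA7, HERC5, IRF1, PARP14, GBP1 and GBP2 fell. Fitted changes were below 0 for 28 genes and above 0 for 7, with a median log2 fold change of -0.34, where the median of all genes was -0.05. The members and the background are set side by side as a description.

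The 7 genes differ in how many control libraries carry them. UBA7 and IRF1 were the 2 whose call held when any single library was left out. GBP1 and GBP2 rested on CONTROL_3 alone, ISG15 on CONTROL_5, and PARP14 lost its call without CONTROL_4. HERC5, the call nearest the threshold, was lost in 14 of the 20 fits that left out 1 library.

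The ISG15 system attaches the small ubiquitin-like protein ISG15 to other proteins. UBA7 is the enzyme that activates ISG15 for this. Its level was 8.11, 8.86, 10.6, 6.39 and 8.36 CPM in FR1, 6.88, 5.73, 7.81, 10.4 and 7.89 CPM in FR2, and 10.7, 7.52, 7.43, 6.28 and 11.2 CPM in FR3. In control it was 14.8, 9.45, 21.6, 22.3 and 14.1 CPM. Control libraries other than CONTROL_2 were all above the highest inseminated library, an order that 2.29% of all genes showed in at least 4 of the 5 control libraries. UBA7 averaged 8.27 ± 1.73 CPM in inseminated (SD, n = 15) and 16.5 ± 5.43 CPM in control uteri (SD, n = 5). The log2 fold change was -0.99 ± 0.19 (edgeR, SE; adjusted p = 0.00233), and -1.14 to -0.85 without any 1 library.

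ISG15 itself was at 3.97 to 38.9 CPM in FR1, 7.33 to 17.6 CPM in FR2 and 16 to 102 CPM in FR3. In control it was at 39.8, 9.81, 59.5, 52.8 and 247 CPM, so FR3 and control overlapped widely. Its log2 fold change was -1.98 ± 0.53 (edgeR, adjusted p = 0.0214), and -0.98 without CONTROL_5 (adjusted p = 0.206). HERC5, the ligase that attaches ISG15 in human cells, was at 6.6 to 45.4 CPM in FR1, 15.1 to 24.3 CPM in FR2, 20.5 to 99.6 CPM in FR3 and 31 to 94.8 CPM in control. All 5 FR2 libraries were below all 5 control libraries. Its change was -1.10 ± 0.35 (edgeR, adjusted p = 0.0486).

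The remaining genes of this system were not called. HERC6, which does this work in mouse cells, was at -0.75 ± 0.27 (adjusted p = 0.0808, edgeR). USP18, the protease that removes ISG15 and also damps the type I receptor, was at -0.78 ± 0.44 (adjusted p = 0.281, edgeR). TRIM25 was at -0.05 ± 0.43 (adjusted p = 0.957, edgeR). All 6 fitted changes of the ISG15 group were below 0.

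Among the transcription factors, IRF1 fell and the rest were not called. IRF1 was at 12.1, 15.4, 18.1, 16.2 and 29.8 CPM in FR1, 12.7, 16.9, 17, 15.5 and 19.5 CPM in FR2, and 13, 12, 23.6, 17 and 19.7 CPM in FR3. In control it was at 18.7, 23.9, 103, 66.4 and 22 CPM. CONTROL_3 and CONTROL_4 were above all 15 inseminated libraries, and the other 3 control libraries overlapped with them. The log2 fold change was -1.44 ± 0.30 (edgeR, adjusted p = 0.00387), with -1.64 to -0.94 when 1 library was left out. IRF7, which amplifies type I interferon production, was at -0.93 ± 0.31 (edgeR, adjusted p = 0.0583). STAT2 and IRF9, which act together in type I signalling, were at 0.16 ± 0.22 and -0.31 ± 0.25 (edgeR, adjusted p = 0.713 and 0.463).

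The large GTPases split into a pair with calls and a pair without. GBP1, a guanylate-binding protein that attacks the compartments of intracellular microbes, was at 9.73 to 37.4 CPM in the 15 inseminated libraries. In control it was at 15.7, 11.4, 259, 32.4 and 15.5 CPM. GBP2 was at 2.61 to 9.52 CPM in inseminated libraries, and at 6.77, 6.95, 61.5, 6 and 6.44 CPM in control. Apart from CONTROL_3, control and inseminated libraries overlapped for both genes. The log2 fold changes of GBP1 and GBP2, -1.87 ± 0.50 and -1.71 ± 0.41 (edgeR, adjusted p = 0.0198 and 0.0107), became -0.05 and -0.29 without CONTROL_3. MX1 is given above, and MX2 was at -0.26 ± 0.63 (edgeR, adjusted p = 0.842).

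PARP14, an ADP-ribosyltransferase, was at 4.6 to 25.5 CPM in FR1, 10.5 to 16.6 CPM in FR2 and 11.4 to 39 CPM in FR3. In control it was at 45.9, 51.3, 37.1, 61.7 and 15.8 CPM, so 3 control libraries were above every inseminated one, while CONTROL_3 and CONTROL_5 lay within the inseminated range. The log2 fold change was -1.29 ± 0.34 (edgeR, adjusted p = 0.0212), and -1.11 without CONTROL_4 (adjusted p = 0.0632). PARP9 and DTX3L, which work as a complex and lie near PARP14, were at -0.28 ± 0.20 and -0.34 ± 0.19 (edgeR, adjusted p = 0.406 and 0.272).

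**Figure D3:**
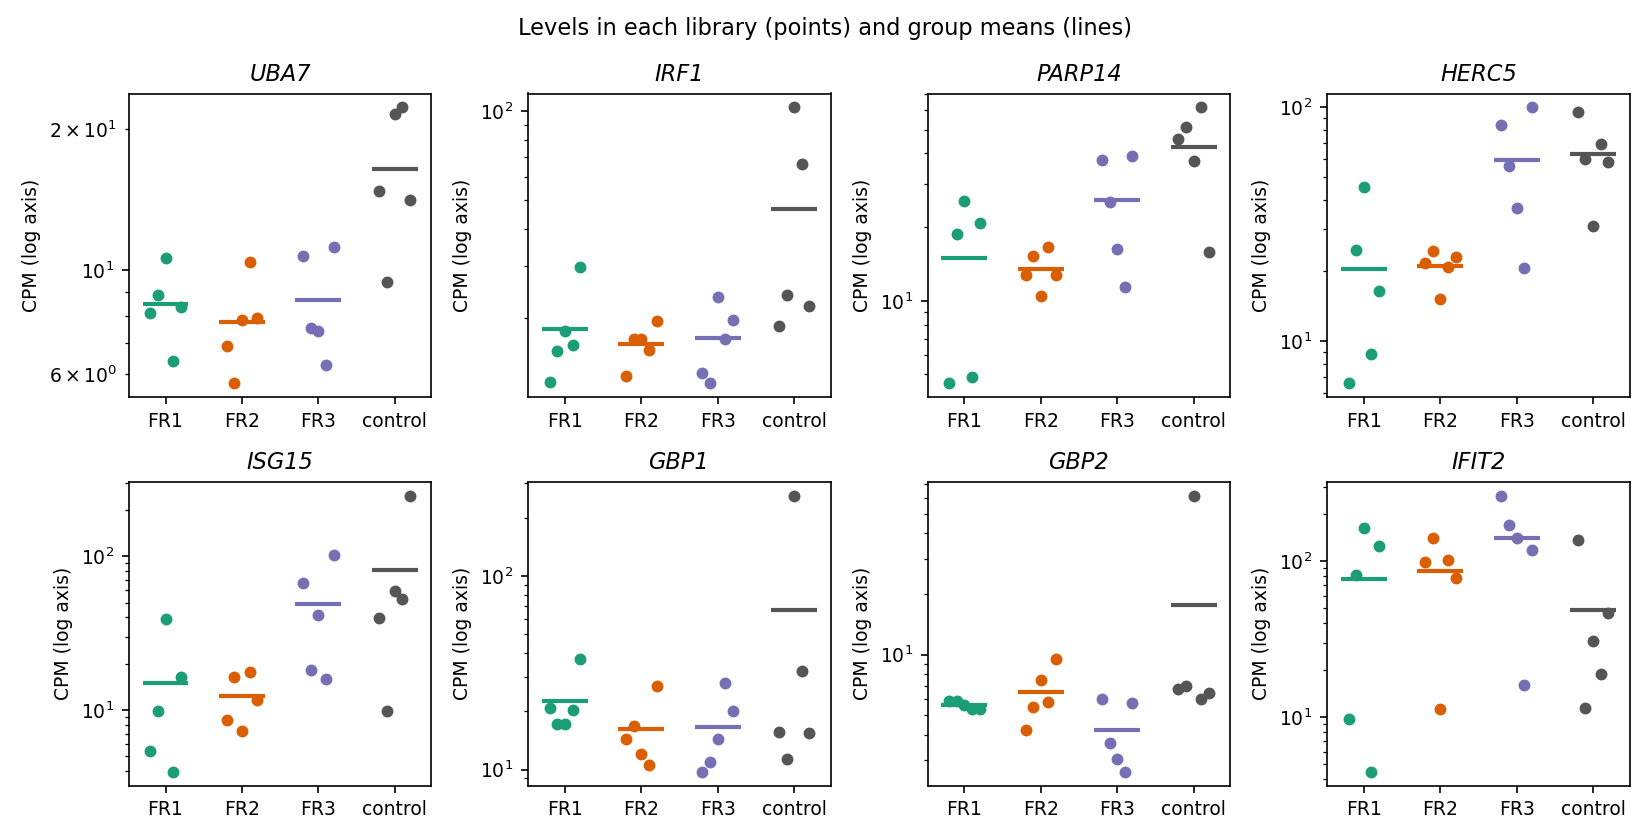
CPM on log axes in each library (points) with the mean of each group (lines), for 7 genes called in inseminated against control uteri and for IFIT2, which was not. Control libraries other than CONTROL_2 lie above all inseminated libraries for UBA7, while for GBP1 and GBP2 a single control library, CONTROL_3 at 259 and 61.5 CPM, stands far above the rest.

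Sensors, RNA-directed effectors and the other effectors gave no call in this comparison. The sensor DDX58 (RIG-I) was at 0.43 ± 0.52, IFIH1 at -0.30 ± 0.30, DHX58 at -0.85 ± 0.47 and ZBP1, a sensor of Z-form nucleic acid, at 0.03 ± 0.44 on the log2 scale. Among the 7 RNA-directed effectors the range was from -1.66 ± 0.64 for OASL, an OAS-like protein that aids RIG-I in human cells (edgeR, adjusted p = 0.103), to 1.01 ± 0.74 for IFIT2 (edgeR, adjusted p = 0.422). OAS1 and OAS2, which make the messenger that activates RNase L, were at 0.60 ± 0.61 and -0.46 ± 0.42, and the kinase EIF2AK2 (PKR), which halts translation, was at -0.06 ± 0.35. BST2 (tetherin, which holds budding virus at the cell surface) was the closest of the others, at -1.15 ± 0.38 (edgeR, adjusted p = 0.0537).

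Epithelial markers mostly moved the same way as the 7 calls. Of 15 markers, 7 fell and 0 rose in inseminated uteri (EPCAM, KRT18, CLDN4, CLDN7, ELF3, MUC1 and ST14). Fitted changes of 2 of the 15 were above 0, up to 0.84. Stromal markers LUM and PDGFRA, 2 of 8, rose, and 7 of the 8 were above 0, with 1 at -1.37. Smooth muscle markers gave 0 calls among 7, with 0 above 0 and a median of -0.42. Endothelial markers gave 0 calls among 6, with 5 above 0 and a median of 0.19. Of all genes tested, 8.2% fell and 2.87% rose. Leukocyte markers moved both ways. Of 6 macrophage and monocyte markers 2 fell (CD14 and LYZ, list median -0.53), and 2 fitted changes were above 0. Of 4 neutrophil markers 2 fell (CSF3R and MMP8, list median -1.84), and 1 was above 0, at 1.93. Neutrophil sums were low, at 0.637 to 16.5 CPM in inseminated and 1.24 to 83.2 CPM in control libraries. Of 4 B and plasma cell markers 1 rose, and 3 fitted changes were above 0, with a median of 0.4. Of 8 T and NK cell markers 0 were called, with 1 fitted change above 0 and a median of -0.58. With the epithelial marker mean as a covariate, none of the 7 genes was called, and UBA7 and IRF1 were at -0.64 and -1.07 (edgeR, adjusted p = 0.115 and 0.126). HERC5 and PARP14 were then at -0.02 and -0.04. In that fit 8 other genes were higher in inseminated uteri, among them IFIT2 at 2.92, DDX58 at 2.02 and TRIM25 at 1.56. The covariate and the groups overlap little, since the mean log2 level of the markers was 5.77 to 7.54 in inseminated and 7.35 to 7.95 in control libraries. Leaving out the 4 inseminated libraries lowest in epithelial markers, a choice made after seeing the data, kept 6 of the 7 calls, with ISG15 at -1.70 (edgeR, adjusted p = 0.0517). The median of the list was 0.65 with the covariate, with 25 genes above 0. The part of leukocytes in these results was not tested.

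CONTROL_3 carried more than GBP1 and GBP2. SOCS1, an inhibitor that interferon gamma induces to shut off its own signal, was at 2.31 to 6.88 CPM in inseminated libraries, while CONTROL_3 had 366 CPM and the remaining control libraries 4.05 to 25.1 CPM. CXCL10, a chemokine that draws T cells, was at 125 CPM there and at 2.12 to 8.47 CPM in the other control libraries. Of 6 macrophage and monocyte markers, LYZ at 366 CPM, CD14 at 57.8 CPM and AIF1 at 12.7 CPM were highest of all libraries in CONTROL_3, while CD163 at 0.779 CPM was lowest there, and CSF1R and CD68 at 31.9 and 5.89 CPM were below CONTROL_4 at 53 and 11.9 CPM. Interferon gamma itself reached no more than 19 counts in any library, and that was in CONTROL_3. The part of any such cells in the result was not tested.

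Against control, each kind of semen gave fewer calls, all of them lower. In FR1 uteri 1 gene fell, UBA7 at -0.96 ± 0.25 (edgeR, adjusted p = 0.0432). That is 2.9% of the list, near the 2.6% of all genes called (1.99% lower, 0.609% higher). In FR2 uteri 4 genes fell, 11.4% of the list, where 5.55% of all genes were called (3.98% lower, 1.57% higher). They were ISG15 at -2.73 ± 0.75, UBA7 at -1.09 ± 0.25, IRF1 at -1.52 ± 0.40 and PARP14 at -1.65 ± 0.46 (edgeR, adjusted p = 0.0411, 0.0169, 0.0322 and 0.0436). In FR3 uteri 3 genes fell, 8.6% of the list, where 4.27% of all genes were called (2.85% lower, 1.43% higher). They were UBA7 at -0.93 ± 0.25, IRF1 at -1.46 ± 0.40 and GBP2 at -2.06 ± 0.56 (edgeR, adjusted p = 0.0396, 0.0433 and 0.0435).

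The medians of the list give the background to these calls. The median log2 fold change was -0.76 in FR1, with 2 genes above 0, and -0.81 in FR2, with 4 genes above 0. In FR3 it was 0.16, with 20 genes above 0. When 1 library was left out the medians ran from -1.17 to -0.53 in FR1, from -1.01 to -0.52 in FR2 and from -0.04 to 0.34 in FR3, with the FR3 median at -0.04 without FR3_5 and -0.02 without FR3_1. With the epithelial covariate they turned in FR1 and FR2, to 0.43 and 0.54 with 25 genes above 0 in each, and the FR3 median was 0.88. These comparisons share the same 5 control libraries. HERC5 shows the contrast, at -1.63 ± 0.46 in FR1 and -1.58 ± 0.46 in FR2 (edgeR, adjusted p = 0.0616 and 0.0503), and at -0.08 ± 0.45 in FR3 (edgeR, adjusted p = 0.938). DDX58 was at -0.15 ± 0.63, 0.02 ± 0.63 and 1.40 ± 0.64 in FR1, FR2 and FR3 (edgeR, adjusted p = 0.935, 0.989 and 0.211). UBA7 was near -1 in all 3.

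Complete separation from control was uncommon. All 5 FR2 libraries lay below all 5 control libraries for HERC5, HERC6 and IRF9, where 2.54% of all genes did so. IRF9 was at 34.4 to 66 CPM in FR2 and 66.8 to 84.9 CPM in control, a narrow gap. In FR1 this held for 1 gene, GBP2, at 5.36 to 5.87 CPM in FR1 and 6 to 61.5 CPM in control, where 1.36% of all genes did so. In FR3 it held for 0 members, where 1.18% of all genes did so.

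The calls in single groups were fragile. When each of the 20 libraries was left out in turn, UBA7 lost its call in 14 of the fits for FR1, in 11 for FR3 and in 2 for FR2. IRF1 lost it in 7 for FR2 and in 16 for FR3, GBP2 in 16 for FR3, ISG15 in 9 and PARP14 in 11 for FR2. When only the 10 libraries of a pair of groups entered the fit, 0 members were called in any of the 3 groups, and no more than 1 of all genes was called in any of these fits, so this says nothing about the members. An exact rank-sum test of inseminated against control over all 15504 ways to pick 5 of the 20 libraries called 0 members and 334 of all genes, with UBA7 at an exact p of 0.00155 (adjusted p = 0.0601) and IRF1 at 0.00542 (adjusted p = 0.102).

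**Figure D4:**
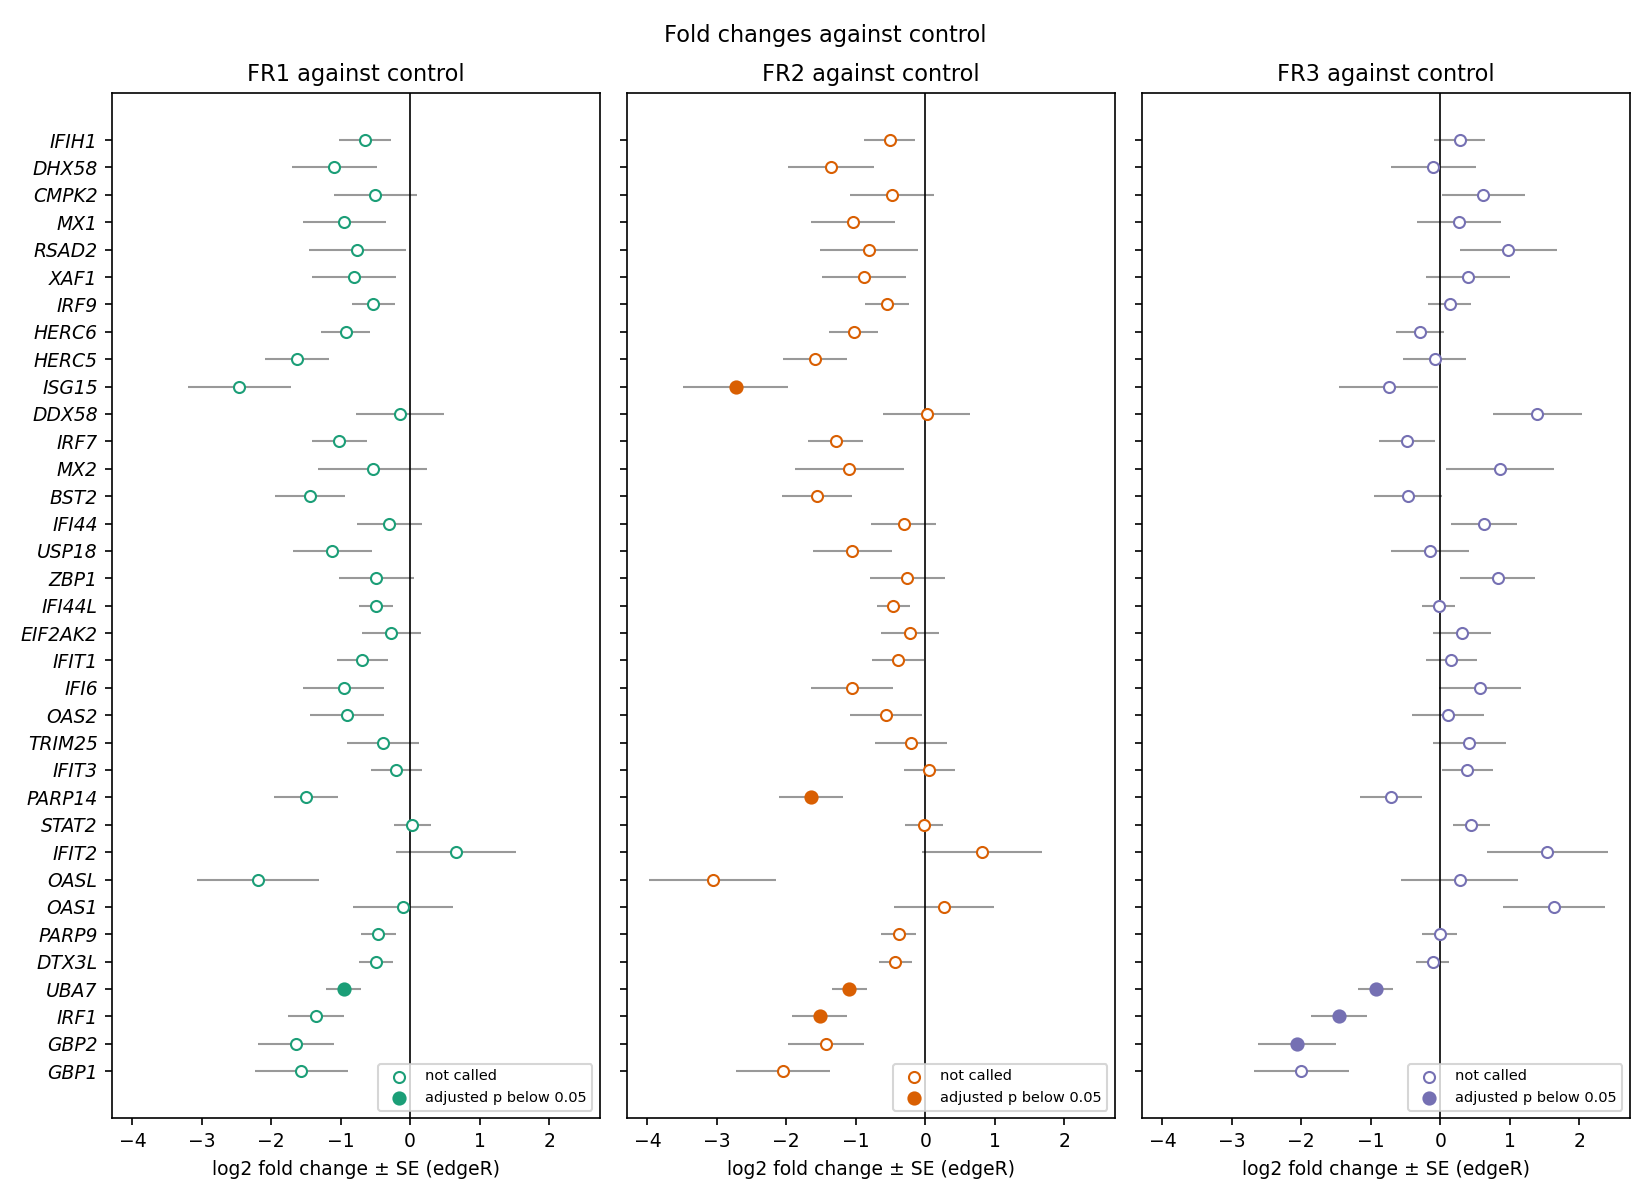
Log2 fold change ± SE of each gene in FR1, FR2 and FR3 against control (edgeR, same axis in the 3 panels), filled where the adjusted p was below 0.05. Filled points are UBA7 in all 3 panels, ISG15, PARP14 and IRF1 in FR2, and IRF1 and GBP2 in FR3; most open points lie left of 0 in FR1 and FR2 and on both sides of 0 in FR3.

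A test for any difference among the 4 groups called 3 of the 35 genes, UBA7, HERC5 and IRF1 (edgeR, adjusted p = 0.0236, 0.0407 and 0.0369), where 4.07% of all genes were called.

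The series asks what the added fractions of the ejaculate do, so the inseminated groups were also set against each other. Adding the intermediate fraction gave no difference that passed. In FR2 against FR1, 0 of 35 genes and 0 of all genes were called (edgeR), 0 of the 35 had an unadjusted p below 0.05, and the median log2 fold change was -0.01. The median ran from -0.18 to 0.33 when 1 library was left out, with 5 to 30 genes above 0. It was 0.33 without FR1_3, -0.18 without FR1_1 or FR1_4, and 0.15 by limma-voom. The widest change was -0.87 ± 0.87 for OASL, and SEs of the 35 genes ran from 0.24 to 0.87 on the log2 scale. A call over all genes needs a change of several SEs, so differences well above these SEs could be missed with 5 libraries each.

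With the poor fraction added, fitted changes were above 0 for nearly the whole list, and no gene passed edgeR's test. In FR3 against FR2, 0 of 35 genes were called by edgeR (lowest adjusted p = 0.666), where 0.00564% of all genes, a single gene, were called; DESeq2 called 1 member, OASL. An unadjusted p below 0.05 was reached by 12 of the 35 genes, or 34.3%, against 7.37% of all genes. Fitted changes were above 0 for 34 of 35 genes, with a median of 0.80, where the median of all genes was 0.01 and 50.5% of all genes were above 0. GBP2, at -0.63 ± 0.54, was the exception. The genes move together (median Spearman correlation 0.64 with group means removed). These counts, and those against FR1 below, are therefore not 35 separate observations.

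In FR3 against FR1, which shares the FR3 libraries, 0 of 35 genes were called (edgeR, lowest adjusted p = 0.586; 0 of all genes called). An unadjusted p below 0.05 was reached by 11 of the 35, or 31.4%, against 8.29% of all genes. Changes were above 0 for 32 genes, with a median of 0.93. IRF1, GBP1 and GBP2 were the genes below 0.

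The levels show what lies behind these medians. IFI6, a mitochondrial protein that protects cells from death, was at 970, 869, 993, 162 and 800 CPM in FR3_1 to FR3_5. It was at 251, 306, 117, 287 and 268 CPM in FR2 and at 53.5, 271, 583, 43.1 and 367 CPM in FR1. All FR3 libraries but FR3_4 were above every FR2 and every FR1 library. The log2 fold change of IFI6 was 1.63 ± 0.60 against FR2 and 1.53 ± 0.60 against FR1 (edgeR, unadjusted p = 0.014 and 0.0196, adjusted p = 0.666 and 0.593).

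DDX58 was at 201, 81.1, 91.4, 15.3 and 141 CPM in FR3, at 29.4, 70.6, 13, 61.3 and 29.2 CPM in FR2 and at 13.2, 41.3, 94.5, 7.18 and 24.4 CPM in FR1. Again FR3_4 was the low library of its group. RSAD2 was at 33.2, 11.3, 17.1, 1.44 and 33.7 CPM in FR3, at 2.49 to 8.58 CPM in FR2 and at 1.05 to 14.7 CPM in FR1. OASL had the widest fitted change, 3.33 ± 0.92 against FR2 (edgeR, adjusted p = 0.666), with 4.12, 1.82, 2.15, 1 and 17.2 CPM in FR3 and 0.17 to 1.04 CPM in FR2. Its FR3 mean leans on FR3_5.

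At least 4 of the 5 FR3 libraries were above every FR2 library for 16 of the 35 genes, against 7.25% of all genes. Against FR1 this held for 3 genes, against 5.15% of all genes. The low library was FR3_4 in both, and the spread of FR1 was wide, with FR1_3 at a mean of 0.62 SD units and FR1_4 at -1.63.

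**Figure D5:**
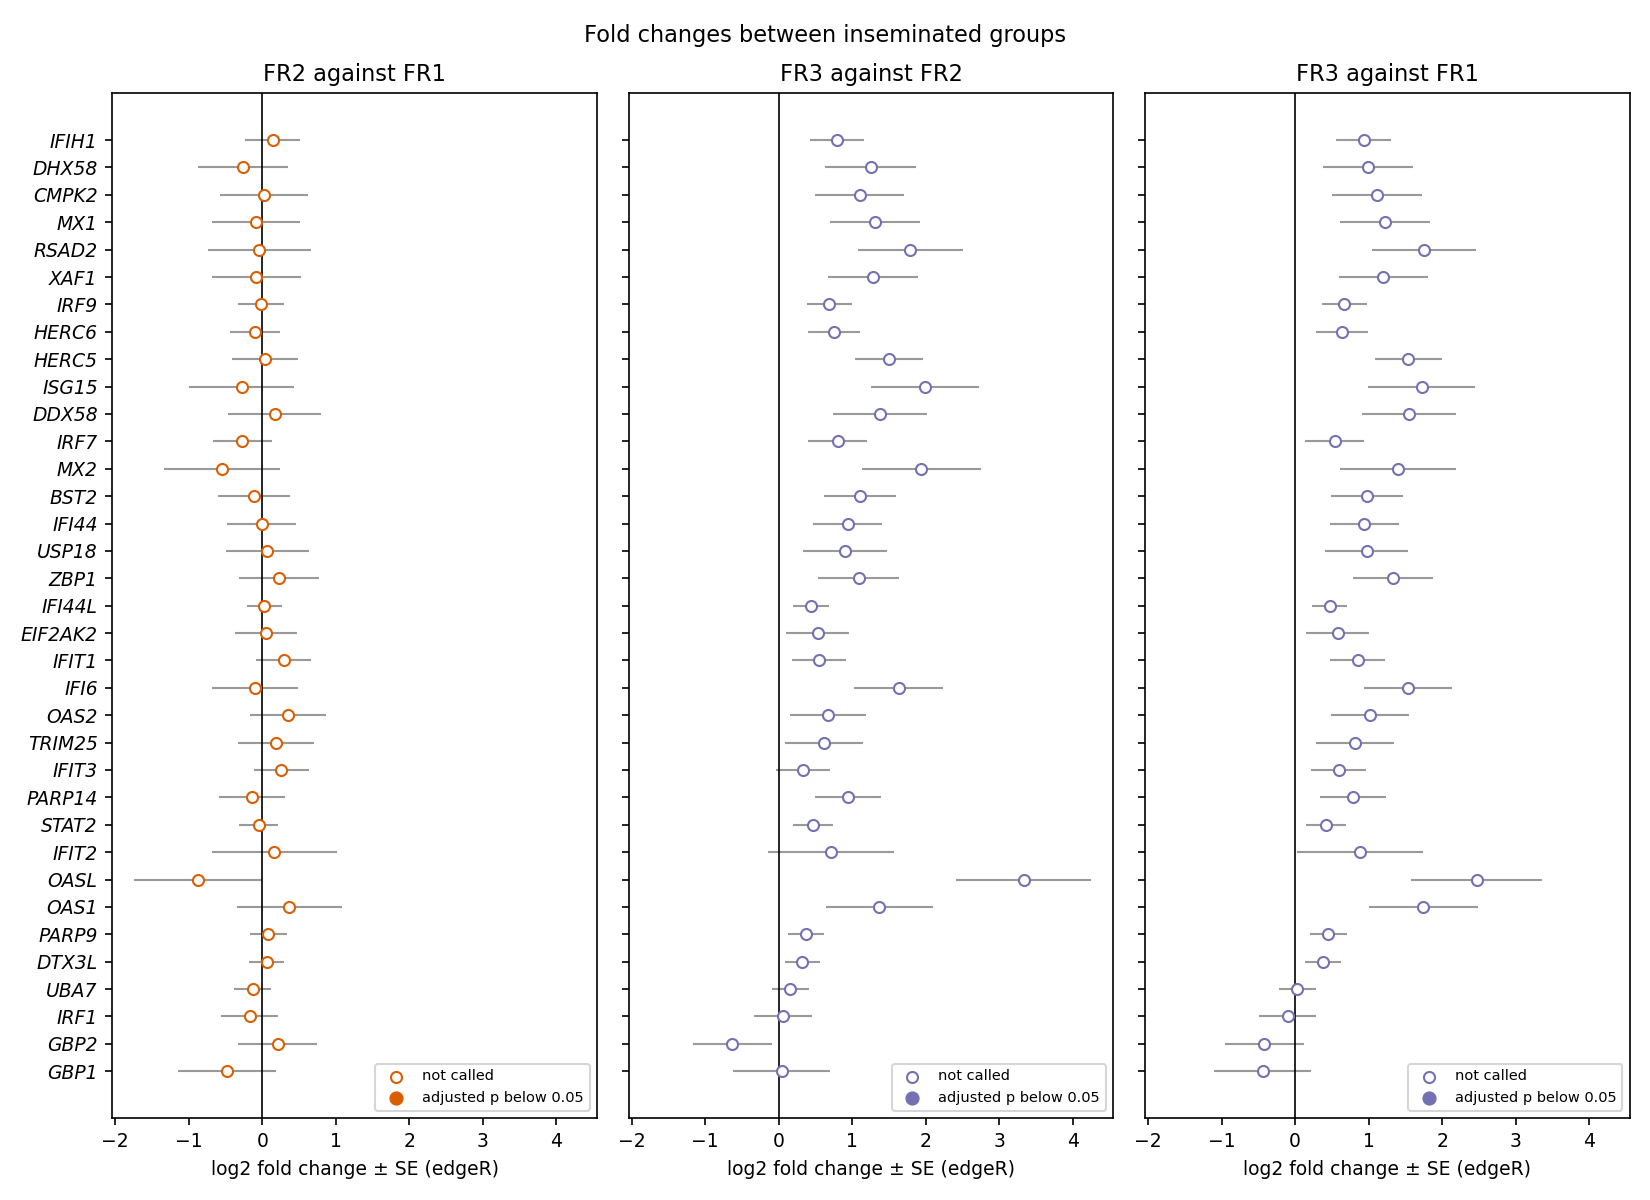
Log2 fold change ± SE of each gene in FR2 against FR1, FR3 against FR2 and FR3 against FR1 (edgeR, same axis in the 3 panels); no point is filled because no adjusted p was below 0.05. Points scatter around 0 in the left panel, while in the other panels nearly all lie right of 0, with medians of 0.80 and 0.93.

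Fitted changes of epithelial markers were also mostly above 0. In FR3 against FR2, 14 of 15 epithelial markers were above 0, with a median of 0.56 and 0 called, and 0 of 8 stromal markers were above 0. T and NK cell markers were above 0 in 8 of 8 (median 0.48) and neutrophil markers in 4 of 4 (median 0.47), with 0 called. Macrophage and monocyte markers were above 0 in 4 of 6 (median 0.16). B and plasma cell markers were above 0 in 1 of 4 (median -0.45), with 0 called in either list. In FR3 against FR1, 15 of 15 epithelial markers were above 0, with a median of 0.46. So were 4 of 8 T and NK cell markers (median -0.02) and 4 of 4 neutrophil markers (median 1.5). Macrophage and monocyte markers were above 0 in 5 of 6 (median 0.38). B and plasma cell markers were above 0 in 1 of 4 (median -0.74), and 0 of all these markers were called. Neutrophil markers were near the limit of detection, with sums of 1.89 to 16.5 CPM in FR3, 2.17 to 5.11 CPM in FR2 and 0.637 to 3.6 CPM in FR1. Epithelial sums were 1740 to 6900 CPM in FR3, 2260 to 3920 CPM in FR2 and 1890 to 5350 CPM in FR1. With the epithelial mean as a covariate, the median of the 35 genes was 0.21 against FR2 and 0.28 against FR1, with 27 and 30 genes above 0. Without the 4 inseminated libraries lowest in epithelial markers it was 0.83 and 0.69, and without any 1 library it was 0.63 to 1.01 and 0.68 to 1.23.

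Of the ligands that could start the response, those measured were mostly at the limit of detection. The table held 34 interferon ligand genes. No row was named IFNA2, IFNW1 or IFNL1 to IFNL4, so no interferon lambda gene was measured under these names. Of the 34 genes, 33 had at most 56 counts in any library, with 6 at 0 in all 20. These 33 include near-identical alpha, delta and omega genes, whose few reads the counting may share out. IFN-OMEGA-3 was called higher in inseminated uteri (edgeR, adjusted p = 0.0238), with 0 to 20 counts in inseminated libraries and 0 in all 5 control libraries, so its fold change is not given.

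Interferon epsilon, IFNE, was the exception, with 6 to 3407 counts per library. It was at 1.37, 21.8, 46.5, 0.505 and 18.5 CPM in FR1, and at 23.4, 41.2, 0.115, 35 and 15.7 CPM in FR2. In FR3 it was at 77.6, 46.5, 39, 3.05 and 31.9 CPM, and in control at 8.69, 29.4, 28.7, 3.44 and 23.5 CPM. The 4 lowest inseminated libraries were FR2_3, FR1_4, FR1_1 and FR3_4, the same 4 that were lowest in epithelial markers and in the mean of the 35 genes. Among the control libraries the order differed: CONTROL_4, lowest in IFNE, had the highest mean of the 35 genes.

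Of 10 receptors and kinases tested, 1 fell in inseminated uteri, a share near the 11.1% of all genes, and the median of the 10 was -0.33. The gene called was IFNLR1, the interferon lambda receptor found mainly on epithelium, at -1.47 ± 0.34 (edgeR, adjusted p = 0.00802). IFNLR1 was at 0.635 to 2.81 CPM in inseminated and 1.16 to 7.82 CPM in control libraries, and it was not called without CONTROL_3 (-1.06, adjusted p = 0.0803). The type I receptor subunit IFNAR1 was at 40.5 to 77.1 CPM in inseminated libraries and at 124, 46.4, 14.6, 66.4 and 10.1 CPM in control, where it was least even.

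Of 13 genes that induce interferon, 2 rose and 3 fell in inseminated uteri, where 2.87% of all genes rose and 8.2% fell. MAVS, the adaptor below the RNA sensors, was at 53.7 to 101 CPM in inseminated and 38.7 to 60.8 CPM in control libraries, with a change of 0.59 ± 0.13 (edgeR, adjusted p = 0.00676). TBK1, the kinase that activates IRF3, rose by 1.24 ± 0.38 (edgeR, adjusted p = 0.041), a call lost in 10 of 20 fits that left out 1 library. IRF3, the transcription factor it acts on, fell to 15.7 to 23.4 CPM in inseminated libraries, against 19.1, 31.8, 47.4, 30.1 and 42 CPM in control, with a change of -0.77 ± 0.15 (edgeR, adjusted p = 0.00226). TICAM1, the adaptor of TLR3, was lower, at -1.23 ± 0.24, and so was MB21D1 (cGAS, a DNA sensor), at -0.82 ± 0.25 (edgeR, adjusted p = 0.00288 and 0.0388). The calls of MAVS and IRF3 held in all 20 such fits.

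Of 11 genes known mainly as interferon gamma targets, 5 fell in inseminated uteri, where 8.2% of all genes fell. All 11 fitted changes were below 0, with a median of -1.23. CXCL10 at -2.54 ± 0.68 and IDO1, which breaks down tryptophan, at -3.64 ± 1.01 rested on CONTROL_3 and were at 0.11 and -0.26 without it. PSMB9, an immunoproteasome subunit, changed by -1.63 ± 0.36 (edgeR, adjusted p = 0.00599), to 3.84 to 26.7 CPM in inseminated uteri against 24.6, 8, 47, 42.8 and 19.9 CPM in control, and held in all 20 fits. PSMB8 and WARS were at -1.23 ± 0.35 and -0.88 ± 0.22 (edgeR, adjusted p = 0.0272 and 0.0151). Of 7 genes that restrain interferon signalling, SOCS1 fell, at -4.38 ± 0.62 and at -1.58 without CONTROL_3 (edgeR, adjusted p = 0.000246 and 0.00601).

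A further 28 interferon-stimulated genes outside the list were tested for the same comparison. Of these 3 fell, IFI35, LY6E and PLSCR1, at -0.68 ± 0.21, -1.38 ± 0.43 and -0.62 ± 0.17 (edgeR, adjusted p = 0.0427, 0.0463 and 0.0208), and PARP11 rose by 0.46 ± 0.14 (edgeR, adjusted p = 0.0435). Of all genes 8.2% fell and 2.87% rose, so both shares of the 28 were near those of all genes. The median of the 28 was -0.18. In FR3 against FR2 24 of them were above 0, with a median of 0.44 and 0 called.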

How the data were processed

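Uterine messenger RNA was enriched on poly-T beads before paired-end Illumina sequencing, per the labels' protocols. Both dUTP and dTTP are described for the second strand, so strandedness is unknown, and reads of a gene and its antisense partner may be mixed. The submitters' processing notes name CASAVA, STAR 2.7.9a and Salmon 1.10.1. Not given in the sources used here are genome build and annotation. The authors deposited an estimated count per gene and library, the unit that Salmon writes, with 87.2% of values whole. Each estimated count was rounded here. Of 30369 rows, 24 name no gene (0.0036% to 0.0133% of a library's counts) and were left out. No pair of libraries was near enough to be a single library deposited again.

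All genes were tested under R 4.3.3 with the quasi-likelihood F test of edgeR 4.0.16, TMM factors and filterByExpr, which kept 17745 genes. The 20 libraries entered 1 fit with 16 residual degrees of freedom. A gene was called at a Benjamini-Hochberg adjusted p below 0.05 over all genes. Each SE was derived from the fold change and its F statistic. Correlations and standardised values used log2 CPM with a prior count of 2. Alternatives were DESeq2 1.42.0, limma-voom (limma 3.58.1), relative log expression factors, other filters, fewer libraries, an epithelial covariate and an exact rank-sum test. The procedure was tested on simulated counts.

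The genes of the list, the other lists and the tests were chosen with earlier results of these data known. Genes of other lists are named where called in at least 1 comparison, and ligands and receptors for their levels. Of the 10 genes closest in profile to the list, 1 is not reported here. Each library is from its own sow, so p-values measure the spread between animals.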

Additional observations from a re-analysis of the deposited data

Results flagged for a closer look

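In 8 of the 140 checks of a gene within a group of 5 libraries, 1 library stood apart from the other 4 by more than Dixon's 95% critical value; chance alone gives about 1 in 20. Among control libraries, CONTROL_5 stood out for ISG15, with 247 CPM where the rest had 9.81 to 59.5. IFIT2 was at 136 CPM in CONTROL_1 and at 11.4 to 46.3 CPM in the other control libraries. CONTROL_3 stood out for GBP1, with 259 CPM where the rest had 11.4 to 32.4, and for GBP2, with 61.5 CPM where the rest had 6 to 6.95. In FR1, GBP1 was at 37.4 CPM in FR1_5 and at 17.1 to 20.9 CPM in the others. In FR2, OAS2 was at 199 CPM in FR2_4 and at 53.3 to 95.5 CPM in the others. In FR3, OASL was at 17.2 CPM in FR3_5 and at 1 to 4.12 CPM in the others. IFI6 was low in FR3_4, at 162 CPM, and at 800 to 993 CPM in the other FR3 libraries.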

How the results depend on the processing

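Of the 7 members called in inseminated against control uteri, limma-voom called 4 and the exact rank-sum test 0. DESeq2 and relative log expression factors called 9 members each, and a stricter filter on low counts 8, all lower. DESeq2 gave a value for 34 of the 35 members, and GBP2 was not among its calls. Leaving out 1 library gave 5 to 10. Counts over all genes moved as well, so these shifts are not particular to the members: in FR2, 985 of all genes were called, and 1162 with relative log expression factors, 2125 by DESeq2, 705 by limma-voom and 1 with only the libraries compared. In FR1 against control, with 1 member called, no filter on low counts, limma-voom, a fit of only the libraries compared and leaving out the 4 inseminated libraries lowest in epithelial markers (chosen after seeing the data) gave 0, DESeq2 gave 6, and leaving out 1 library gave 0 to 4. In FR2, with 4 called, relative log expression factors gave 7, DESeq2 10, limma-voom 1, only the libraries compared 0, and leaving out 1 library 0 to 8. In FR3, with 3 called, no filter gave 1, limma-voom and only the libraries compared 0, and leaving out 1 library 0 to 4. In FR3 against FR2, DESeq2 gave 1 instead of 0. For any difference, with 3 called, DESeq2 gave 10, limma-voom 0, and leaving out 1 library 0 to 6. Leaving out 1 library called 0 members between inseminated groups.

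With the epithelial covariate the members called were different genes, and they were higher. No member called lower in the main fit of a comparison was called in its covariate fit. The covariate gave 8 higher members in inseminated, 2 in FR1, 5 in FR2 and 12 in FR3 against control, with 0 lower. In these fits 2091, 702, 1225 and 2084 of all genes were called in either direction. TRIM25 was then at 1.56 in inseminated, 1.50 in FR1 and 1.74 in FR2, IRF9 at 0.62 and RSAD2 at 1.95 in inseminated, RSAD2 at 1.92 and STAT2 at 0.89 in FR2. Without the 4 libraries lowest in epithelial markers, 1 member (DDX58, higher) was called in FR3 against control. CXCL10 ranged from -2.84 to 0.11 when 1 library was left out, and was at 0.11 without control replicate 3. The cause of these shifts was not tested.

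No paired analysis was possible because the labels number the sows from 1 to 20 with no number shared between groups, and the column numbers match no sow. The number of sows limits each comparison, and depth limits mainly OASL, ZBP1 and MX2, which had the lowest median CPM of the list.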
